A study of Mus musculus with 8 samples.

Results

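The 9 genes described here encode inhibitory receptors, or an enzyme counted with them, and were followed across the lymphocytes of B16-OVA tumors in mice. They were Pdcd1 (PD-1), Ctla4, Lag3, Havcr2 (TIM-3), Tigit, Cd96, Cd160, Btla and Entpd1 (CD39), and each of the 9 symbols stood for 1 of the 27998 genes measured. The genes were taken by symbol, and the set was chosen with earlier results of these data known. Their unique molecular identifiers (UMIs, 1 per captured transcript) were summed in cells gated by raw marker UMIs, which gave 5061 CD8+ T cells, 653 Foxp3-negative and 404 Foxp3-positive CD4+ T cells, 1782 NK cells and 295 type 2 cells out of 15700 barcodes. A type 2 cell held UMIs of both Il1rl1 and Gata3, so it could be a T helper 2 cell or a type 2 innate lymphoid cell.

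The cells were tumor-infiltrating CD45+ leukocytes, enriched for CD8+ cells by sorting and sequenced from the 5′ end of their transcripts in 8 libraries. All recipients were female C57BL/6 mice, 7 weeks old when B16-OVA melanoma cells were injected under the skin. B16-OVA is a line that expresses ovalbumin, and none of the mice was lymphodepleted. Adoptive cell transfer (ACT) used OT1 cells, CD8+ T cells with a receptor for an ovalbumin peptide, from CD45.1+ donors aged 6 to 10 weeks. The OT1 cells were untransduced (days 5 and 12), or secreted PD1d with IL-2v (day 12), PD1d with IL-33 (day 12), or came as an equal mix of those engineered cells, labelled PD1d/IL-2v/IL-33 and called the mix hereafter (days 5, 12 and 26). Non-treated tumors carried the time code of day 5. Days count from cell transfer and not from tumor injection. PD1d is a decoy of the mouse PD-1 ectodomain fused to a human IgG4 Fc, IL-2v is an interleukin-2 variant that does not bind CD25, and IL-33 is an alarmin that signals through the product of Il1rl1. Transgenes came from retroviral vectors, tumors were pooled within a condition, and host T cells were present beside the OT1 cells, which the gates did not separate. Each condition and day had 1 library, so conditions were compared without a test, whereas classes of cells were compared over libraries.

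Inhibitory receptors are induced when a lymphocyte is activated, and they restrain signalling through the antigen receptor and costimulatory receptors. On T cells in tumors, which meet antigen for a long time, several of them are commonly held by the same cell, and antibodies that block PD-1 or CTLA-4 are used as cancer treatments. Regulatory CD4+ T cells hold CTLA-4 constitutively, and NK cells share TIGIT, CD96 and CD160 with T cells.

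The genes lay on 6 mouse chromosomes in GRCm38.p6 as RefSeq annotates them. Ctla4 was on the plus strand at chr1:60909025-60915832 and Pdcd1 on the minus strand of the same chromosome at chr1:94038305-94052553. Tigit (chr16:43626137-43665125), Btla (chr16:45223705-45252895) and Cd96 (chr16:46035652-46120248) lay within 2494 kb of chromosome 16. Cd160 was at chr3:96798763-96829351, Lag3 at chr6:124904359-124912434, Havcr2 at chr11:46454931-46481255 and Entpd1 at chr19:40612366-40741602. The promoter table matched 8 of the 9 genes with 10 promoters of 300 bases each, and held none for Lag3. The 250 bases before a RefSeq start are shown for Pdcd1, Ctla4 and Tigit, on which most of the results below turn. For Pdcd1 and Ctla4 that start is the outer end of the gene span, and for Tigit the promoter table holds a start that lies inside the span. Capitals mark a GGAAA match or a TGTGGT match on either strand, the core letters to which NFAT and Runx factors bind.
Pdcd1, chr1:94052554-94052803, minus strand: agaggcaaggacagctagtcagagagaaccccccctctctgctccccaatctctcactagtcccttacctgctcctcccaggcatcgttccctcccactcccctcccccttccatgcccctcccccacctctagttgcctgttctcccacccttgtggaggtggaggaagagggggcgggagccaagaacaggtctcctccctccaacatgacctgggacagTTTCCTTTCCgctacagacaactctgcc
Ctla4, chr1:60908775-60909024, plus strand: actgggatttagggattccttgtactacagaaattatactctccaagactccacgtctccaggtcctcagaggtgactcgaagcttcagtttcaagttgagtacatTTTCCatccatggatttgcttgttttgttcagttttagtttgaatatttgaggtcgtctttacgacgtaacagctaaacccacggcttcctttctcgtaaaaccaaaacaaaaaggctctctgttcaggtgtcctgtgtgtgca
Tigit, chr16:43664185-43664434, minus strand: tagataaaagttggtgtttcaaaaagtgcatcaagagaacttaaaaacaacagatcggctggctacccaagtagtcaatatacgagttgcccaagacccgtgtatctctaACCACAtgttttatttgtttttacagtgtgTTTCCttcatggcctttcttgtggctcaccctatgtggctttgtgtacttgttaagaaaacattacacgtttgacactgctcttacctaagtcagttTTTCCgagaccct
The Pdcd1 window held 2 GGAAA matches, both on the opposite strand and side by side, the Ctla4 window 1, and the Tigit window 2 together with 1 TGTGGT match. GGAAA occurred in 6 of the 10 promoters and in 61.5% of all 32544 promoters of the same length. TGTGGT occurred in 7 of the 10 and in 16.7% of all. The AP-1 letters TGANTCA occurred in 1 of the 10 (7.79% of all), and the NR4A letters AAAGGTCA in 0 of the 10 (1.52% of all). These are matches of letters and were not tested for binding.

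Total UMIs ran from 1387032 to 24917112 per library, and the untransduced day 12 and non-treated libraries were the smallest, with 42 and 76 CD8+ T cells. The gates were checked with markers they did not use, not all of which were highest in their own class. NK cells held Klrb1c at 621 counts scaled to a total of 1000000 UMIs (CPM) against at most 15.6 CPM in the other 4 lymphocyte classes, Foxp3-positive cells held Ikzf2 at 1030 CPM and Tnfrsf4 at 1636 CPM, and type 2 cells held Il13 at 2970 CPM and Il5 at 1604 CPM. Of the markers set for CD8+ T cells, Thy1 was highest in that class (1144 CPM). Cd2 (309 CPM) and Cd5 (110) were higher in Foxp3-positive cells (966 and 439 CPM), and Lck (591) in Foxp3-negative cells (741 CPM). Cd40lg, set for Foxp3-negative cells, stood at 256 CPM there and 262 CPM in type 2 cells. A Foxp3 UMI was present in 76 CD8+ T cells, and 143 barcode sequences were found in more than 1 library. The names of the authors' Cell Ranger outputs gave the 8 libraries 5 identifiers, called runs here. The labels do not say whether these stand for sequencing runs. Both day 5 ACT libraries had a run of their own, so condition and run cannot be told apart between them.

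Pdcd1 and Ctla4, the receptors for PD-L1 and PD-L2 and for CD80 and CD86, divided the classes in different ways. Pdcd1 was carried by CD8+ and CD4+ T cells and by type 2 cells, and hardly by NK cells. In CD8+ T cells its level was lowest at 217 CPM (the mix, day 5), had a median of 280.3 CPM and was highest at 805 CPM (untransduced, day 5). In NK cells of the same 8 libraries it ran from 0 CPM (PD1d/IL-33, where a count of 0 allows up to 7.97 CPM) over a median of 7.70 to 27.0 CPM, so every NK value lay below every CD8+ value. The difference in level was -5.11 ± 0.21 on the log2 scale (SE, 8 libraries), lower in NK cells in 8 of 8 libraries (edgeR's quasi-likelihood test with Benjamini-Hochberg adjustment, adjusted p = 6.21e-12). Foxp3-negative CD4+ T cells held 189 to 1007 CPM over 6 libraries, with a median of 264. Their difference from CD8+ T cells was -0.03 ± 0.12 (edgeR adjusted p = 0.93), and it turned to 0.11 with a gate that asked for at least 2 UMIs of each marker set, so no direction is given. Foxp3-positive CD4+ T cells held 349 CPM after untransduced ACT, 322 after PD1d/IL-2v, and 79.1, 89.8 and 251 CPM at days 5, 12 and 26 of the mix. In each of these 5 libraries this was below the Foxp3-negative cells, by -1.01 ± 0.17 on the log2 scale (edgeR adjusted p = 0.000346).

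Ctla4 ran the other way among the T cells. CD8+ T cells held 108 to 453 CPM, with a median of 187 over 8 libraries, and Foxp3-negative CD4+ T cells 139 to 1793 CPM, with a median of 299.7 over 6. Foxp3-positive cells held 2894 CPM after untransduced ACT, 3073 after PD1d/IL-2v, and 1202, 1846 and 1888 CPM at days 5, 12 and 26 of the mix. The lowest Foxp3-positive value was above the highest CD8+ value, and in every library above the Foxp3-negative value. The difference from CD8+ T cells was 3.14 ± 0.19 (5 of 5 libraries higher, edgeR adjusted p = 3.5e-10), and that from Foxp3-negative cells 2.28 ± 0.28 (5 of 5, edgeR adjusted p = 1.24e-05). Foxp3-negative cells were above CD8+ T cells by 0.85 ± 0.26 in 5 of 6 libraries (edgeR adjusted p = 0.0281). That call was lost with DESeq2 (adjusted p = 0.205), without PD1d/IL-33 ACT (0.0793), without day 26 (0.0695) and with at least 50 cells per class (0.30 on the log2 scale, adjusted p = 0.164). Of the Foxp3-negative cells, 18.4 to 51.2% per library held a UMI of Il2ra, Ikzf2 or Ikzf4, which mark regulatory T cells. Without those cells the value of 1793 CPM (PD1d/IL-2v) was 329 CPM, while that of 139 CPM (the mix, day 12) was 150 CPM. The difference from CD8+ T cells was not tested without them. NK cells held 0 to 74.0 CPM, with a median of 17.4, which was -2.95 ± 0.33 from CD8+ T cells and lower in 8 of 8 libraries (edgeR adjusted p = 1.68e-06).

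**Figure D1:**
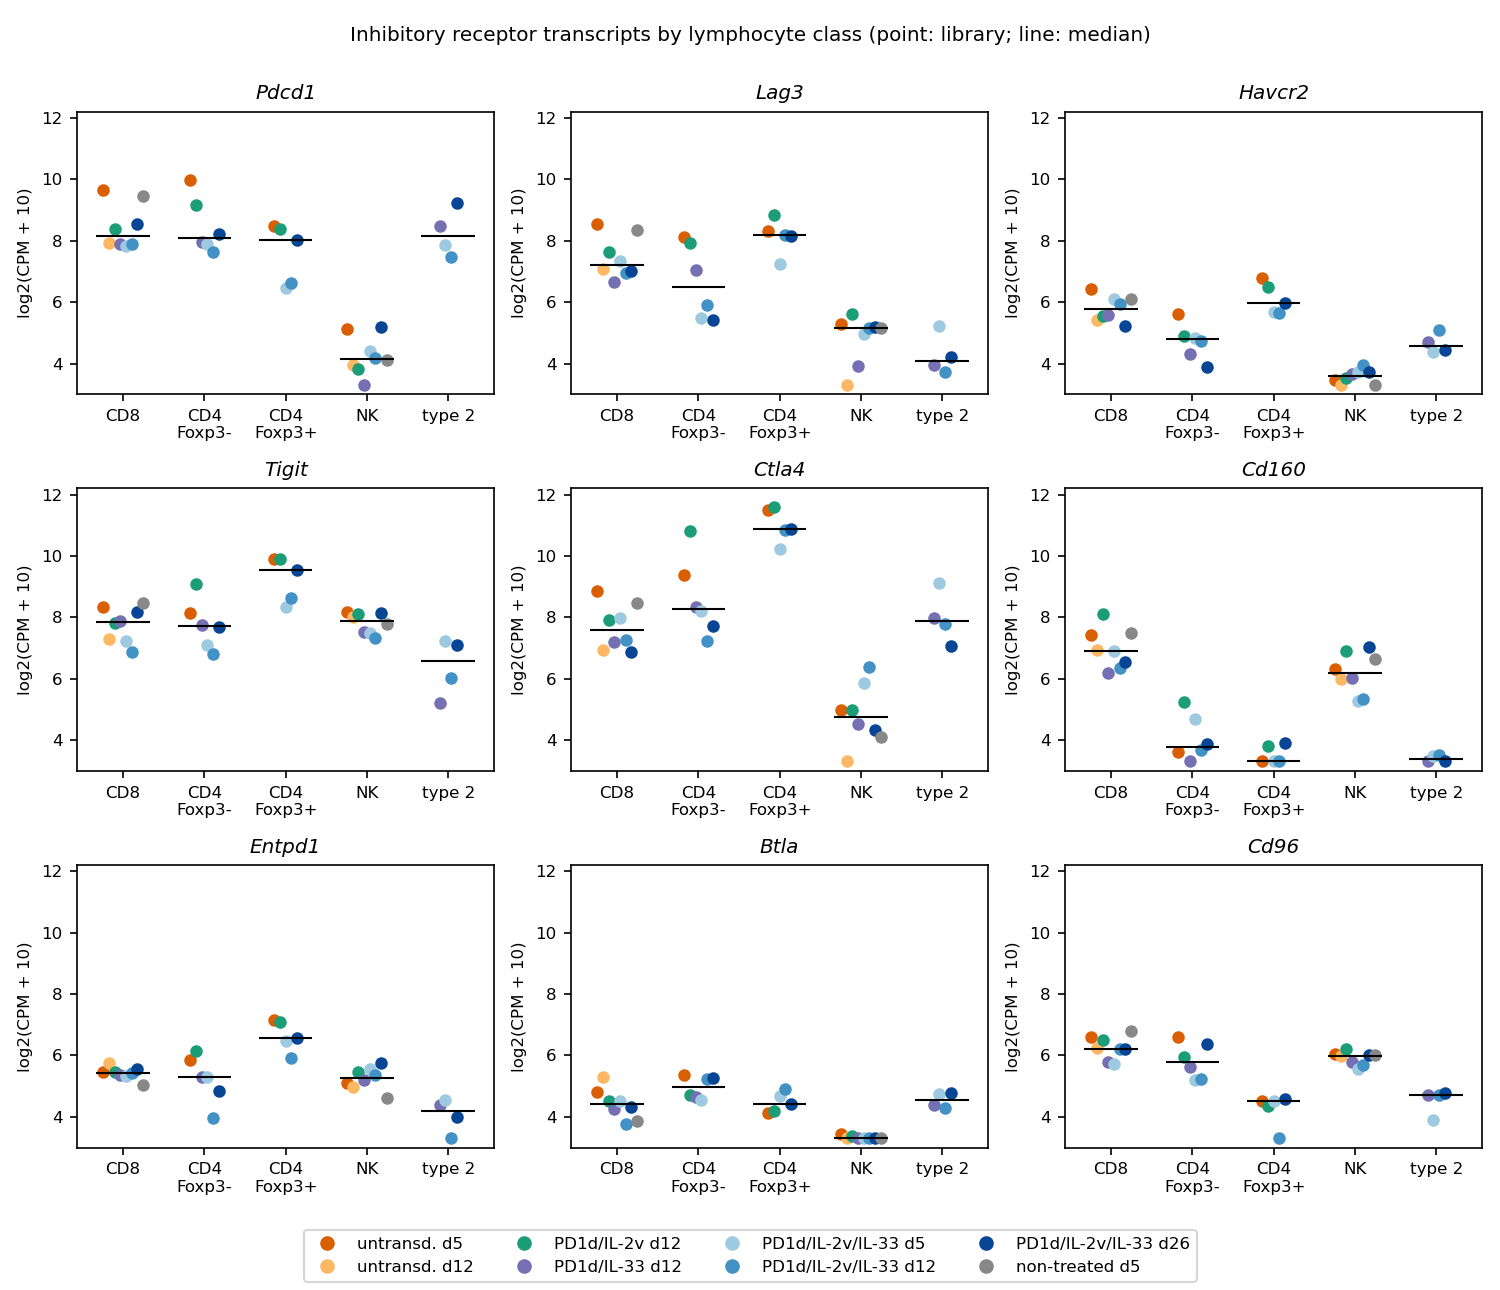
Level of each of the 9 genes as log2(CPM + 10) in 5 classes of lymphocytes, with 1 panel per gene, 1 point per library with at least 20 cells of the class and a line at the median. Ctla4 in Foxp3-positive cells (1202 to 3073 CPM) stood above every point of CD8+ T, NK and type 2 cells, and Pdcd1 in NK cells (0 to 27.0 CPM) below those of every T cell class.

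Lag3, which binds MHC class II, and Havcr2, which binds galectin-9 among other ligands, had the same order of medians over the T cell classes. Lag3 in CD8+ T cells was lowest at 91.8 CPM (PD1d/IL-33), had a median of 140 and was highest at 366 CPM (untransduced, day 5). Foxp3-positive cells held 309 CPM after untransduced ACT, 444 after PD1d/IL-2v, and 142, 279 and 274 CPM at days 5, 12 and 26 of the mix. Foxp3-negative cells ran from 33.2 to 266 CPM, with a median of 86.8, and were below Foxp3-positive cells in 5 of 5 libraries. Lag3 was higher in Foxp3-positive than in Foxp3-negative cells by 1.52 ± 0.30 (edgeR adjusted p = 0.0012), a call lost with the stricter gate (0.83, adjusted p = 0.18). It was higher in Foxp3-positive than in CD8+ T cells by 0.54 ± 0.18 in 3 of 5 libraries (edgeR adjusted p = 0.0367), and this was lost in 6 alternatives, among them DESeq2 (adjusted p = 0.0816) and leaving out PD1d/IL-2v (0.254), day 12 (0.105) or day 26 of the mix (0.145). Foxp3-negative cells were below CD8+ T cells by -0.90 ± 0.24 in 4 of 6 libraries (edgeR adjusted p = 0.0136), lost with DESeq2 (adjusted p = 0.0987) or without day 26 (0.0843). NK cells, at most 38.6 CPM, were below CD8+ T cells in 8 of 8 libraries, by -2.89 ± 0.19 (edgeR adjusted p = 2.36e-09).

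Havcr2 in CD8+ T cells ran from 27.8 CPM (day 26) over a median of 45.0 to 76.3 CPM (untransduced, day 5). Foxp3-positive cells held 102 CPM after untransduced ACT, 80.0 after PD1d/IL-2v, and 41.1, 39.9 and 52.7 CPM at days 5, 12 and 26 of the mix, which overlapped the CD8+ values. Foxp3-negative cells held 4.87 to 39.6 CPM, below CD8+ T cells in 6 of 6 libraries (-1.66 ± 0.21, edgeR adjusted p = 2.12e-05) and below Foxp3-positive cells in 5 of 5 (difference 1.84 ± 0.29, edgeR adjusted p = 0.000217). The difference between Foxp3-positive and CD8+ T cells, 0.35 ± 0.19, did not pass the test (edgeR adjusted p = 0.213), but passed at 0.67 with at least 50 cells per class. NK cells held at most 5.40 CPM. Macrophages, a myeloid class gated for background, held 70.1 CPM of Havcr2, so its UMIs are not particular to lymphocytes.

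Tigit and Cd96 both bind CD155 (Pvr), for which they compete with the activating receptor CD226. The Tigit levels of NK cells and CD8+ T cells overlapped. CD8+ T cells ran from 108 CPM over a median of 222 to 341 CPM, and NK cells from 151 over 229 to 281 CPM. The difference was -0.01 ± 0.12, with NK cells higher in 4 of 8 libraries (edgeR adjusted p = 0.973), and leaving out 1 library at a time gave -0.10 to 0.10. Foxp3-positive cells held 955 CPM after untransduced ACT, 939 after PD1d/IL-2v, and 316, 384 and 741 CPM at days 5, 12 and 26 of the mix. In every library these were above the CD8+ and Foxp3-negative values, by 1.47 ± 0.12 (edgeR adjusted p = 2.48e-08) and 1.51 ± 0.16 (edgeR adjusted p = 2.32e-06). Foxp3-negative and CD8+ T cells differed by -0.10 ± 0.17 (edgeR adjusted p = 0.758), which became -0.38 and passed the test without the PD1d/IL-2v library (adjusted p = 0.021).

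Cd96 had the reverse order. CD8+ T cells held 42.3 to 102 CPM, with a median of 64.8, NK cells 36.7 to 63.3 CPM and Foxp3-negative cells 26.7 to 87.9 CPM, so these classes overlapped. Foxp3-positive cells held 12.9, 10.5, 12.7, 0 and 14.1 CPM after untransduced ACT, PD1d/IL-2v and days 5, 12 and 26 of the mix, where the 0 came from 26 cells and allows up to 15.0 CPM. They lay below CD8+ T cells by -2.79 ± 0.24 (edgeR adjusted p = 3.98e-08) and below Foxp3-negative cells by -2.40 ± 0.29 (edgeR adjusted p = 1.25e-05), lower in 5 of 5 libraries each time. Tigit and Cd96, which share a ligand, thus differed in opposite directions between Foxp3-positive and other T cells. NK cells were below CD8+ T cells by -0.48 ± 0.10 in 8 of 8 libraries (edgeR adjusted p = 0.00105). Foxp3-negative cells differed from CD8+ T cells by -0.39 ± 0.17 and did not pass (edgeR adjusted p = 0.126), but passed without day 26 (-0.61, 0.044).

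Cd160 and Btla bind the same ligand, HVEM (Tnfrsf14). Cd160 was held by CD8+ T cells at 63.6 to 270 CPM, with a median of 111, and by NK cells at 28.5 to 122 CPM, with a median of 63.1. NK cells were lower by -1.13 ± 0.18 in 7 of 8 libraries (edgeR adjusted p = 8.12e-05), and the exception was day 26, at 122 against 83.0 CPM. CD4+ T cells and type 2 cells held almost none. Foxp3-negative cells reached 28.0 CPM (PD1d/IL-2v) over a median of 3.82, Foxp3-positive cells 5.15 CPM and type 2 cells 1.61 CPM. The differences from CD8+ T cells were -4.07 ± 0.26 for Foxp3-negative cells (edgeR adjusted p = 2.05e-08) and -5.98 ± 0.32 for Foxp3-positive cells (edgeR adjusted p = 5.08e-11), and no library went the other way. Btla was low in T cells and at 193 CPM in B cells. CD8+ T cells held 3.78 to 29.0 CPM, with a median of 11.5, and Foxp3-negative cells 13.3 to 30.8 CPM, with a median of 21.9. Foxp3-negative cells were higher by 1.0 ± 0.29 in 6 of 6 libraries (edgeR adjusted p = 0.022), but not with the stricter gate (adjusted p = 0.162) or without day 12 (0.0508) or day 26 (0.177) of the mix. Foxp3-positive cells, at 7.39 to 19.96 CPM, did not pass against CD8+ T cells (-0.25 ± 0.36, edgeR adjusted p = 0.663), and the sign turned to 0.0261 without untransduced ACT. NK cells held no Btla UMI in 6 of 8 libraries and at most 0.998 CPM in the others, and Btla was not tested there.

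Entpd1 encodes CD39, which breaks down extracellular ATP to AMP, from which CD73 (Nt5e) makes adenosine. CD8+ T cells held 22.7 to 43.6 CPM, with a median of 33.4, the narrowest range of the 9 genes in these cells. Foxp3-positive cells held 133 CPM after untransduced ACT, 126 after PD1d/IL-2v, and 79.1, 49.9 and 84.9 CPM at days 5, 12 and 26 of the mix. These were above the CD8+ values in 5 of 5 libraries, by 1.37 ± 0.17 (edgeR adjusted p = 5.67e-06), and above the Foxp3-negative values by 1.63 ± 0.22 (edgeR adjusted p = 3.34e-05). Foxp3-negative cells, at 5.56 to 60.02 CPM, did not pass against CD8+ T cells (-0.38 ± 0.26, edgeR adjusted p = 0.361). Between NK and CD8+ T cells the difference of -0.13 ± 0.13 did not pass the test (edgeR adjusted p = 0.488). Macrophages held 119 CPM.

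Over the 9 genes, NK cells were lower than CD8+ T cells for 6 and higher for 0 of the 8 tested, where 19.6% of all genes tested were lower and 17.2% higher. Foxp3-negative cells were higher than CD8+ T cells for 2 (9.16% of all genes) and lower for 3 (9.07%) of 9. Foxp3-positive cells were higher than CD8+ T cells for 4 (13.0%) and lower for 3 (12.4%) of 9, and higher than Foxp3-negative cells for 5 (10.2%) and lower for 2 (10.2%) of the 7 tested. Type 2 cells were higher than Foxp3-negative cells for 0 (7.73%) and lower for 1 (5.94%) of the 4 tested. The median log2 difference of the members tested was -2.01 for NK against CD8+ T cells (0.00 over all genes) and 1.52 for Foxp3-positive against Foxp3-negative cells (-0.02 over all genes). The comparisons with CD8+ T cells share the sums of those cells. A sum over cells does not tell fewer cells that hold a transcript from fewer transcripts per cell.

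**Figure D2:**
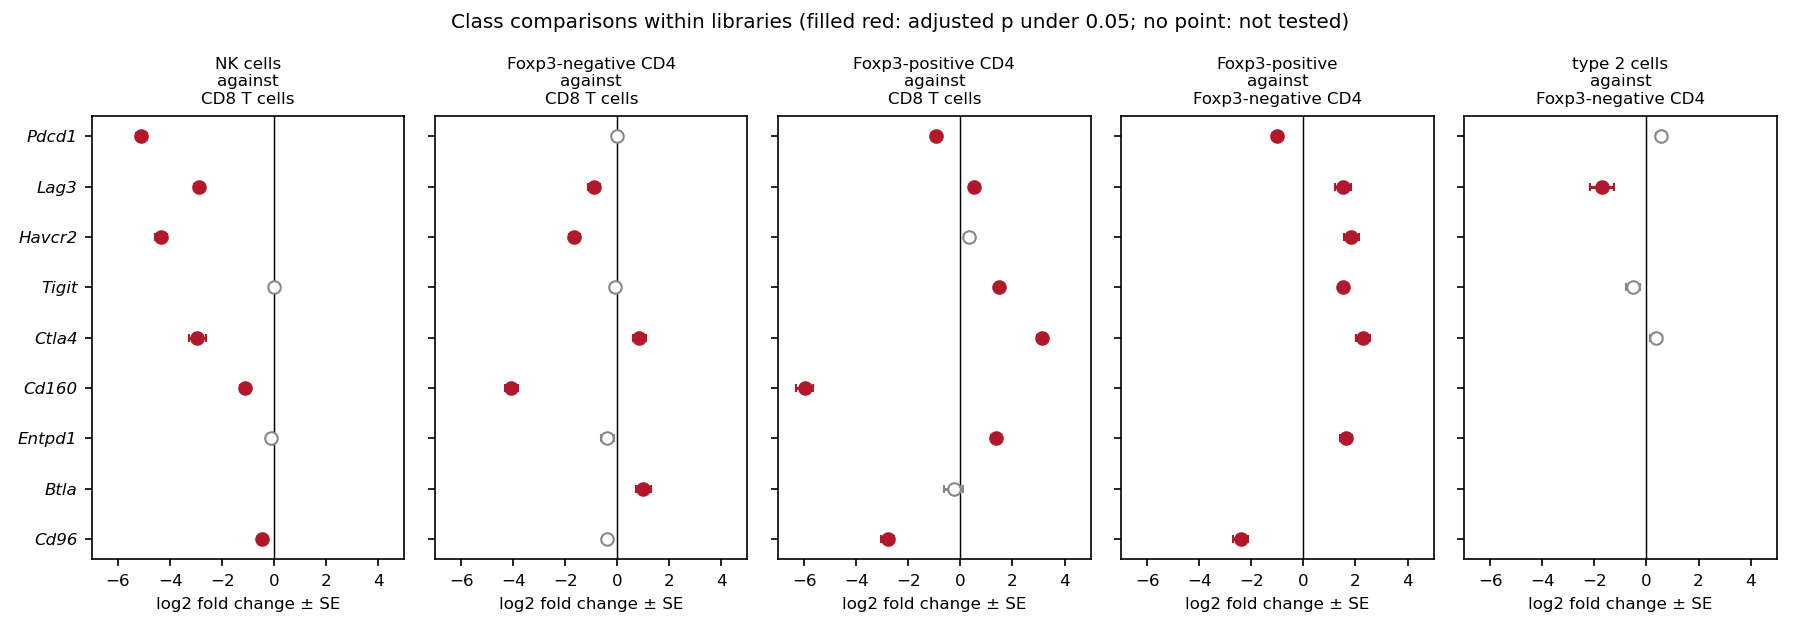
Log2 fold difference of each gene with its SE in 5 comparisons of classes, 1 panel each, where a filled point has an adjusted p under 0.05 and a gene without a point was not tested. Foxp3-positive cells stood to the higher side for Ctla4 (3.14 against CD8+ T cells) and to the lower side for Cd160 (-5.98), Cd96 (-2.79) and Pdcd1 (-0.95).

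Shares of cells with at least 1 UMI were taken over all libraries together, after every cell was thinned to 2000 UMIs. The libraries entered unequally, as day 26 of the mix gave 2287 of the 5061 CD8+ T cells and 63 of the 1782 NK cells. Class and condition are therefore mixed in these shares, unlike in the comparisons within libraries. Ctla4 was detected in 87.9% of Foxp3-positive cells, 28.9% of Foxp3-negative cells, 19.2% of CD8+ T cells and 4.04% of NK cells. Tigit was detected in 71.0% of Foxp3-positive cells, 32.9% of NK cells and 30.6% of CD8+ T cells. Pdcd1 was detected in 32.3% of CD8+ T cells, 34.6% of type 2 cells and 1.29% of NK cells. Before thinning Pdcd1 was detected in 49.3% and Tigit in 56.6% of CD8+ T cells, and Tigit in 61.1% of NK cells. Macrophages, gated for background, gave 0.490% for Pdcd1 and Ctla4 and 0.980% for Tigit and Lag3. They gave 0 of 204 cells for Cd160, Cd96 and Btla, which allows up to 1.47%. Their median was 10753 UMIs per cell against 6079 in CD8+ T cells before thinning. Whether macrophages themselves carry these transcripts at a low level was not tested. Macrophages do hold Havcr2, so its shares, 5.79% of CD8+, 2.14% of Foxp3-negative and 15.3% of Foxp3-positive cells, were set against B cells, where 0 of 108 cells allows up to 2.78%. The Havcr2 share in Foxp3-negative cells was below that limit, as was that of NK cells, 0.224%. The 0.0561% of NK cells with Btla was also below its limit.

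In CD8+ T cells the 9 genes were then set side by side across conditions, as log2 ratios of CPM after 10 CPM were added. Their 95% intervals are approximate, combine the exact Poisson intervals of both counts and cover counting error only. At day 5, untransduced ACT and non-treated tumors stood together at the top for Pdcd1 (805 and 693 CPM), Lag3 (366 and 314), Tigit (316 and 341) and Ctla4 (453 and 341), and every other library was below both for Pdcd1, Lag3, Tigit and Ctla4. Between untransduced ACT and non-treated tumors 0 of 9 genes passed a ratio of 2 in either direction (higher 1.50%, lower 0.527% of all genes), with log2 ratios from -0.22 for Cd96 to 0.94 for Btla. Btla rested on 2 UMIs in non-treated tumors and passed with a pseudocount of 1 CPM (1.77). Untransduced ACT at day 5 and non-treated tumors were in different runs.

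Against untransduced ACT at day 5, the mix was lower past 2-fold for 3 of 9 genes, where 1.38% of all genes were lower and 1.76% higher. Pdcd1 stood at 217 against 805 CPM (log2 ratio -1.84, interval -1.94 to -1.74), Lag3 at 152 against 366 CPM (-1.21) and Tigit at 140 against 316 CPM (-1.12). Ctla4 and Cd96 both had a log2 ratio of -0.88, and Cd160 (-0.54), Havcr2 (-0.33), Btla (-0.28) and Entpd1 (-0.15) were closer. The median of the 9 was -0.88, against -0.09 over all genes. The share of CD8+ T cells with Pdcd1 at equal depth was 27.3% (95% Clopper-Pearson 23.4 to 31.5%) against 52.8% (48.3 to 57.2%), so it was detected in fewer cells. Before thinning these shares were 50.1% and 65.1%. The macrophage markers C1qa, C1qb, Apoe and Lyz2 summed to 5.81 CPM in the first and 41.7 CPM in the second, and their part in the result was not tested. Whether reads of the PD1d transgene were counted as Pdcd1 was not tested. This comparison and the preceding one share the untransduced day 5 library.

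Over time after untransduced ACT the same library served again as the reference. Its days 5 and 12 were in different runs, so day and run cannot be told apart. At day 12, 5 of 9 genes were lower past 2-fold, where 7.11% of all genes were lower and 1.22% higher, from 42 cells. Ctla4 stood at 113 against 453 CPM (log2 ratio -1.92, interval -2.42 to -1.44) and Pdcd1 at 236 against 805 CPM (-1.73), followed by Lag3 (-1.46), Tigit (-1.04) and Havcr2 (-1.02). The intervals of Tigit (-1.49 to -0.62) and Havcr2 (-1.80 to -0.25, 9 UMIs at day 12) also held values short of 2-fold. Entpd1 (0.28, interval -0.46 to 0.98) and Btla (0.48, interval -0.33 to 1.29) had ratios above 0, with intervals that include 0. The count was 3 with TMM scaling (5.00% of all genes lower), which corrects for a few genes that take many UMIs. This scaling moved the median of all genes from -0.18 to -0.06. The count was also 3 when every cell had equal weight in place of weight by its UMIs (8.30% of all genes lower). The tighter cell filter (at most 3000 genes and 12000 UMIs) moved Ctla4 to -2.65, Pdcd1 to -2.57, Lag3 to -2.50, Tigit to -1.55 and Entpd1 to -0.13. Against this small library, the mix at day 12 passed 2-fold for 0 of 8 genes (higher 5.36%, lower 2.48% of all genes), with Cd160 lowest at -0.57 and Havcr2 highest at 0.54. A minimum of 10 UMIs in place of 50 let in Btla, which was lower (-1.50). With the tighter cell filter Lag3 was higher past 2-fold (1.03, from -0.15), Ctla4 stood at 0.99, and Pdcd1 and Tigit turned from below 0 to 0.47 and 0.33.

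**Figure D3:**
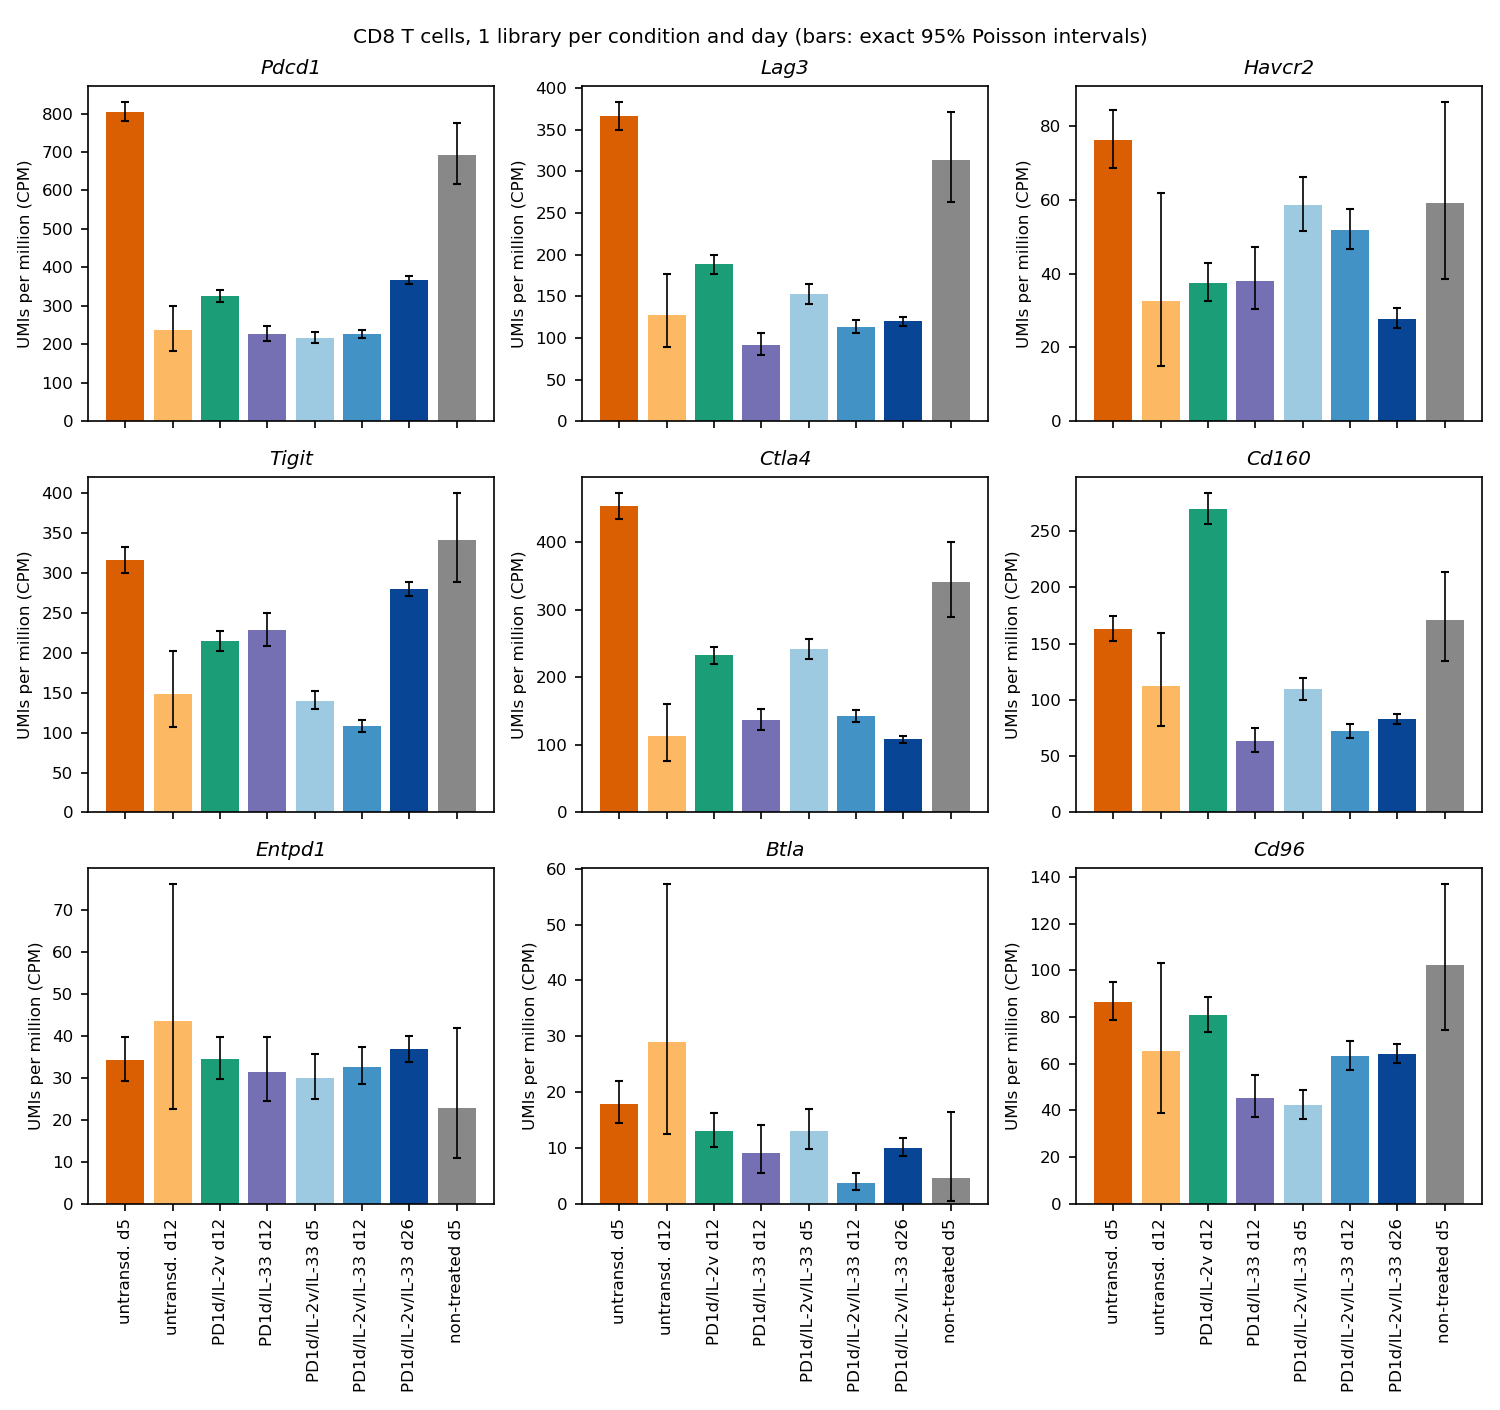
CPM of each of the 9 genes in CD8+ T cells of the 8 libraries, with exact 95% Poisson intervals of the counts, 1 panel per gene. Pdcd1, Lag3, Tigit and Ctla4 peaked in the day 5 untransduced and non-treated libraries, Cd160 in PD1d/IL-2v ACT (270 CPM), and Entpd1 stayed between 22.7 and 43.6 CPM.

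At day 12 each single module differed from the mix past 2-fold for 1 gene. Against PD1d/IL-2v ACT, the mix was lower for Cd160 alone of 9, at 72.3 against 270 CPM (log2 ratio -1.76, interval -1.90 to -1.63; lower 1.06%, higher 1.09% of all genes). Tigit came next, at 108 against 215 CPM (-0.93), or -0.37 with the tighter cell filter. Against PD1d/IL-33 ACT, 1 of 8 genes was lower past 2-fold (0.512% of all genes lower, 1.24% higher). That gene was Tigit, at 108 against 229 CPM (-1.02, interval -1.17 to -0.86), and it fell short of 2-fold with TMM scaling, the stricter gate, the tighter cell filter and equal weight per cell. Pdcd1 stood at 227 CPM in both libraries. Both single-module libraries shared a run, and the mix was in another.

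Within the mix the members were set side by side over time. Between days 5 and 12, 0 of 9 genes passed 2-fold (0.440% of all genes higher, 0.260% lower), with Ctla4 at 242 and 142 CPM (log2 ratio -0.73) and Cd96 at 42.3 and 63.3 CPM (0.49) toward the ends. Between days 12 and 26, Tigit was higher past 2-fold, at 280 against 108 CPM (1.30, interval 1.19 to 1.40; 1.49% of all genes higher, 1.66% lower). Pdcd1 stood at 367 against 227 CPM (0.67), and Havcr2 at 27.8 against 51.8 CPM (-0.71). Tigit was at 0.77 with the tighter cell filter and 0.98 with equal weight per cell. The days 5, 12 and 26 libraries came from 3 runs.

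CD4+ T cells of the same tumors were few, and their ratios were not tested against those of CD8+ T cells. In Foxp3-positive cells, 38 after the mix and 74 after untransduced ACT at day 5, the mix was lower past 2-fold for 5 of the 6 genes with enough UMIs (6.41% of all genes lower). Pdcd1 stood at 79.1 against 349 CPM (log2 ratio -2.01, interval -2.59 to -1.46) and Tigit at 316 against 955 CPM (-1.56), with Ctla4 (-1.26), Havcr2 (-1.13) and Lag3 (-1.06) behind and Entpd1 short of 2-fold (-0.68). At day 12, the mix was lower than PD1d/IL-2v ACT for 3 of 6 genes (6.82% lower), namely Pdcd1 (89.8 against 322 CPM), Tigit (384 against 939 CPM) and Entpd1 (49.9 against 126 CPM). The 5 markers of regulatory T cells (Il2ra, Ikzf2, Ikzf4, Tnfrsf4, Tnfrsf18) summed to 3925 to 4403 CPM in all 5 Foxp3-positive libraries.

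In Foxp3-negative cells these markers differed more between the day 12 libraries compared than between the day 5 libraries. At day 12, the mix was lower than PD1d/IL-2v ACT for 4 of 4 genes with enough UMIs (5.48% of all genes lower), with Ctla4 at 139 against 1793 CPM (log2 ratio -3.60), Tigit at 103 against 532 (-2.26), Lag3 at 50.1 against 232 (-2.01) and Pdcd1 at 189 against 564 CPM (-1.53). The 5 regulatory markers summed to 712 CPM against 1572 CPM, and a UMI of Il2ra, Ikzf2 or Ikzf4 was present in 26.9% of 67 cells against 51.2% of 43. Without those cells, an alternative chosen after the data were seen, 2 genes were lower, Pdcd1 at 92.7 against 619 CPM (-2.62) and Ctla4 at 150.1 against 329 CPM (-1.08), from 49 and 21 cells. Lag3 (-1.79, interval -2.95 to -0.56) and Tigit (-1.24, interval -2.08 to -0.40) had 18 and 43 UMIs left over both libraries, under the minimum of 50, and so left the count with ratios still past 2-fold. At day 5, the mix was lower than untransduced ACT for 5 of 5 genes (6.89% lower), Lag3 (-2.63), Pdcd1 (-2.09, 229 against 1007 CPM), Cd96 (-1.42), Ctla4 (-1.15) and Tigit (-1.03). Without cells with those markers, which were 34.7% and 38.0%, Pdcd1 passed 2-fold (-1.37), and Tigit (-0.95) and Ctla4 (-0.93) did not. Lag3 (-2.38, interval -3.42 to -1.25) and Cd96 (-1.07, interval -2.05 to -0.10) were past 2-fold but had 39 and 34 UMIs, under the minimum. The macrophage markers summed to 5.34 against 154 CPM there, and their part was not tested.

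NK cells differed between libraries in Ctla4 and Cd160. Ctla4 stood at 74.0 CPM (day 12) and 47.7 CPM (day 5) after the mix, at 21.5 CPM after PD1d/IL-2v and after untransduced ACT at day 5, at 13.3 CPM after PD1d/IL-33, at 10.1 CPM in the mix at day 26, at 7.29 CPM without treatment and at 0 CPM of 42 cells after untransduced ACT at day 12 (up to 16.1 CPM). The 2 highest values thus belonged to the mix at its earlier days. In the day 12 library Pdcd1 of NK cells stood at 8.10 CPM against 227 CPM in CD8+ T cells of the same library, while Ctla4 stood at 74.0 against 142 CPM. Cd160 in NK cells was lowest in the same 2 libraries, at 28.5 CPM (day 5) and 30.8 CPM (day 12), against 110 CPM after PD1d/IL-2v and 122 CPM at day 26. The log2 ratio of Cd160 between the mix and PD1d/IL-2v at day 12 was -1.55 in NK cells, beside -1.76 in CD8+ T cells. Tigit in NK cells stayed between 151 and 281 CPM.

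Type 2 cells were numerous enough in the 4 libraries with IL-33. Pdcd1 stood at 344 CPM after PD1d/IL-33 and at 222, 169 and 590 CPM at days 5, 12 and 26 of the mix, and Ctla4 at 242, 545, 213 and 126 CPM in the same order. Day 26 was thus highest for Pdcd1 and lowest for Ctla4. Against Foxp3-negative CD4+ T cells Pdcd1 differed by 0.54 ± 0.19, higher in 2 of 4 libraries, and did not pass the test (edgeR adjusted p = 0.0736), but passed without day 5 (0.0312), without day 12 (0.0439) or with the tighter cell filter (0.0315). Lag3, at 5.37, 27.6, 3.22 and 8.76 CPM, was lower by -1.71 ± 0.46 in 4 of 4 libraries (edgeR adjusted p = 0.0208), a call lost without PD1d/IL-33 ACT (adjusted p = 0.115) or day 12 (0.074). Tigit, at 26.9, 142, 54.8 and 129 CPM, and Ctla4 did not pass (edgeR adjusted p = 0.243 and 0.36), and Tigit passed without day 5 (-0.91, 0.0343) and Ctla4 without day 26 (0.65, 0.0437). Of the 295 cells, 256 had a CD3 UMI and 39 had none. Pdcd1 was at 309.98 CPM in the former and 164 CPM in the latter, Ctla4 at 384 and 126 CPM, and Tigit at 115 and 46.9 CPM.

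Members were also counted within each CD8+ T cell at 2000 UMIs. At least 2 of the 9 were detected in 61.4% of cells after untransduced ACT at day 5 (95% Clopper-Pearson 56.9 to 65.6%) and in 57.9% of cells in non-treated tumors (46.0 to 69.1%). The other 6 libraries gave 28.6% (untransduced, day 12, 15.7 to 44.6%), 36.2, 36.3 and 36.9% (days 26, 12 and 5 of the mix), 37.9% (PD1d/IL-33) and 38.3% (PD1d/IL-2v). Both higher libraries lay above the intervals of those 6. Cells with 4 or more members made up 24.7% and 25.0% of the first pair and 2.72 to 13.0% of the others, of which PD1d/IL-2v was highest. Cells with none made up 18.1% and 19.7% in the first pair and 27.3 to 35.7% in the others, and the most members in any cell was 7. Without thinning the shares were 52.4 to 80.5%, and the day 5 libraries of untransduced ACT (80.5%) and the mix (78.4%) then stood close. In other classes, over all libraries together, at least 2 members were detected in 82.4% of Foxp3-positive cells and 36.0% of Foxp3-negative cells. The shares were 26.8% of type 2 cells, 12.0% of NK cells and 3.43% of macrophages.

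**Figure D4:**
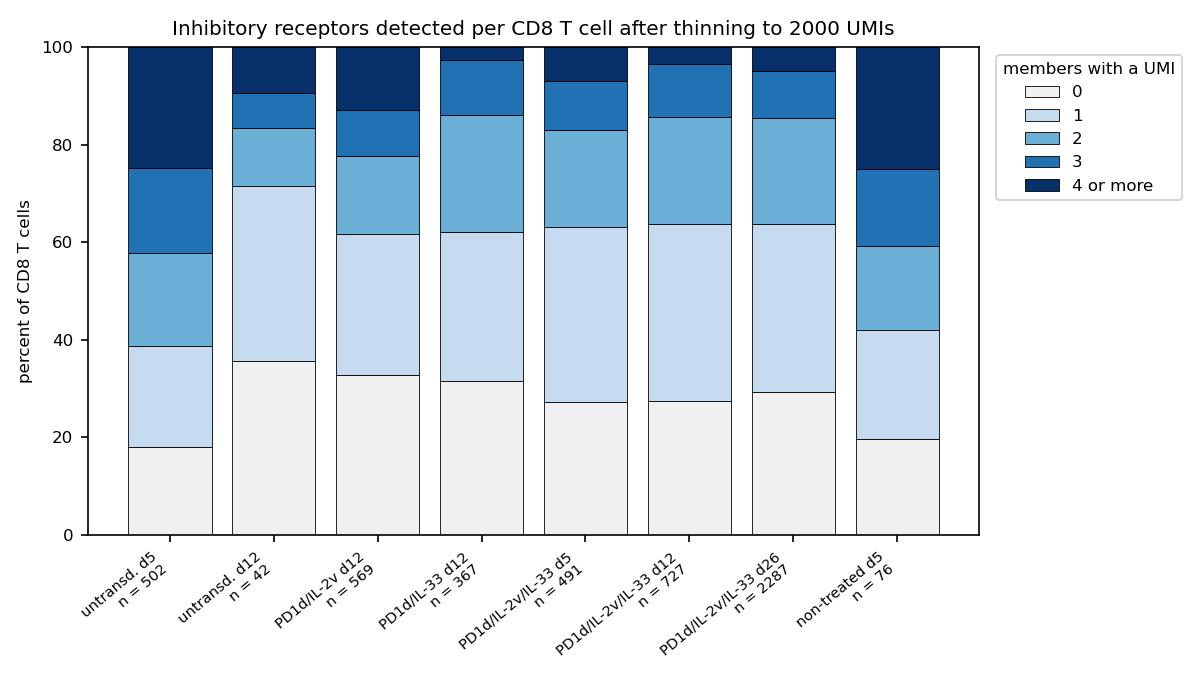
Share of CD8+ T cells in percent by the number of the 9 genes detected after thinning to 2000 UMIs, as stacked bars for 0, 1, 2, 3 and 4 or more, 1 bar per library. The untransduced and non-treated day 5 libraries have 24.7% and 25.0% of cells with 4 or more, against at most 13.0% in the others.

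Pairs of genes met in the same CD8+ T cells to unequal degrees. Lag3 was detected in 55.1% of cells with Pdcd1 and 13.9% of cells without after untransduced ACT at day 5, in 53.8% and 18.9% in non-treated tumors, in 52.2% and 9.24% after PD1d/IL-2v, and in 18.8% and 9.23% after PD1d/IL-33. The mix gave 27.6% and 15.7% at day 5, 26.6% and 12.5% at day 12, and 21.5% and 8.61% at day 26. Lag3 was thus more frequent in cells with Pdcd1 in 7 of the 7 libraries with at least 20 cells in both sets. The gap was wide in PD1d/IL-2v ACT although Pdcd1 itself, at 325 CPM, was not among the highest there. Tigit was more frequent in cells with Pdcd1 in 7 of 7 libraries, from 38.5% against 32.5% after PD1d/IL-33 to 61.5% against 18.9% in non-treated tumors. Cd160 was more frequent in cells with Pdcd1 in 2 of 7 libraries and in cells with Ctla4 in 1 of 7, the non-treated tumors. With Lag3 it was more frequent in 6 of 7 libraries and with Tigit in 4 of 7. Btla was more frequent in cells with Pdcd1 in 3 of 7 libraries and Entpd1 in 4 of 7. In non-treated tumors Btla and Entpd1 rested on 2 and 10 UMIs before thinning, and Btla on 26 at day 12 of the mix. No direction is therefore given for Btla and Entpd1. These shares describe cells of the same libraries and were not tested.

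CD8+ T cells with at least 2 members (1995 cells over all libraries) were compared with those with none (1424 cells over all libraries). The test used the 6 libraries with enough of both, with the 9 genes and the gate markers left out of the genes tested. Untransduced ACT at day 12 (12 and 15 cells) and non-treated tumors (44 and 15 cells) were not in it. Cells with exactly 1 member, 1642 over all libraries, lay between and were left out. The split is a cut of a count, not a cell type. Of 8376 genes, 5.69% were higher and 4.78% lower in cells with at least 2 members. The cells with at least 2 also had more UMIs, with a median of 6790 against 5687 over all libraries and 9880 against 5147 after untransduced ACT at day 5, and the part of this in the result was not tested.

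The lists counted here were chosen with earlier results of these data known. The study had named Tox, Id2 and Nfatc1 beside Pdcd1, Lag3, Havcr2 and Entpd1 as markers of 1 CD8+ cluster in these libraries. Counts over the lists therefore describe the split and are not independent evidence. Of the 11 exhaustion and activation factors listed, 10 were tested and 9 were higher. Tox, a factor of the exhaustion program, was higher by 1.56 ± 0.12 on the log2 scale in 6 of 6 libraries (edgeR adjusted p = 7.99e-05), and Nr4a2, an orphan nuclear receptor induced by antigen receptor signalling, by 1.57 ± 0.24. Prdm1 (1.25), Nr4a3 (1.05), Bhlhe40 (0.95), Ikzf2 (0.89), Id2 (0.63), Nr4a1 (0.47) and Nfatc1 (0.35) followed, and Eomes was at -0.43 without passing (edgeR adjusted p = 0.115). Of 8 naive and memory genes 8 were lower. S1pr1, a sphingosine 1-phosphate receptor that guides exit from lymphoid tissue, was lower by -1.88 ± 0.33 in 6 of 6 libraries (edgeR adjusted p = 0.00403), and Tcf7, which encodes TCF1, by -1.63 ± 0.17 (edgeR adjusted p = 0.000295). Klf2 (-1.76), Lef1 (-1.48), Il7r (-1.48), Id3 (-1.10), Slamf6 (-0.67) and Ccr7 (-0.60) were the rest.

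Of 13 effector genes 7 were higher and 1 lower. The granzyme genes Gzmf (3.98 ± 0.53) and Gzmc (2.81 ± 0.32) led, ahead of the chemokines Ccl3 (2.57) and Ccl4 (2.10), Ifng (1.42), Prf1 (1.40) and Gzmb (0.62), while Ly6c2 was lower (-0.81). Gzmf ran from 3.41 to 7.75 when 1 library at a time was left out, and Gzmc did not pass with the tighter cell filter (0.80, adjusted p = 0.144), nor did Id3 (-0.38, adjusted p = 0.499). Of 5 costimulatory receptors 4 were higher, Tnfrsf4 (1.98, OX40), Tnfrsf9 (1.74, 4-1BB), Icos (0.86) and Tnfrsf18 (0.56, GITR), and Cd28 was at 0.11. Of 4 cycling genes Top2a passed (0.70, edgeR adjusted p = 0.0433), and Mki67 (0.62), Stmn1 (0.62) and Birc5 (0.58) did not. Without day 12 of the mix Mki67 (0.96, edgeR adjusted p = 0.0151), Birc5 (0.96, 0.0131), Stmn1 (0.91, 0.0151) and Cx3cr1 (1.15, 0.0462) passed as higher. Without its day 26 Eomes (-0.68, edgeR adjusted p = 0.0215) and Gzma (-0.55, 0.0456) passed as lower, and without its day 5 Ccl5 did (-0.37, 0.0316). The calls of Nr4a1, Nfatc1, Ccr7 and Top2a were lost in 4 or 5 of the 6 fits that left out 1 library (adjusted p up to 0.167). Those of Bhlhe40, Id2, Lef1, Slamf6 and Tnfrsf18 were lost without PD1d/IL-2v ACT (adjusted p from 0.0586 to 0.110), and that of Slamf6 also without untransduced ACT (0.0603). Icos was lost without day 5 (0.0512) or day 26 (0.0587) of the mix, and Ly6c2 (0.0643) and Tnfrsf18 (0.0556) without day 26. The genes with the largest rise, after Gzmf, were Adgrg1 (3.33), Spp1 (2.91), Nrgn (2.90) and Rgs16 (2.81), and Tmem108 (-3.39), Fam101b (-2.70) and Nsg2 (-2.26) were among those that fell most.

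**Figure D5:**
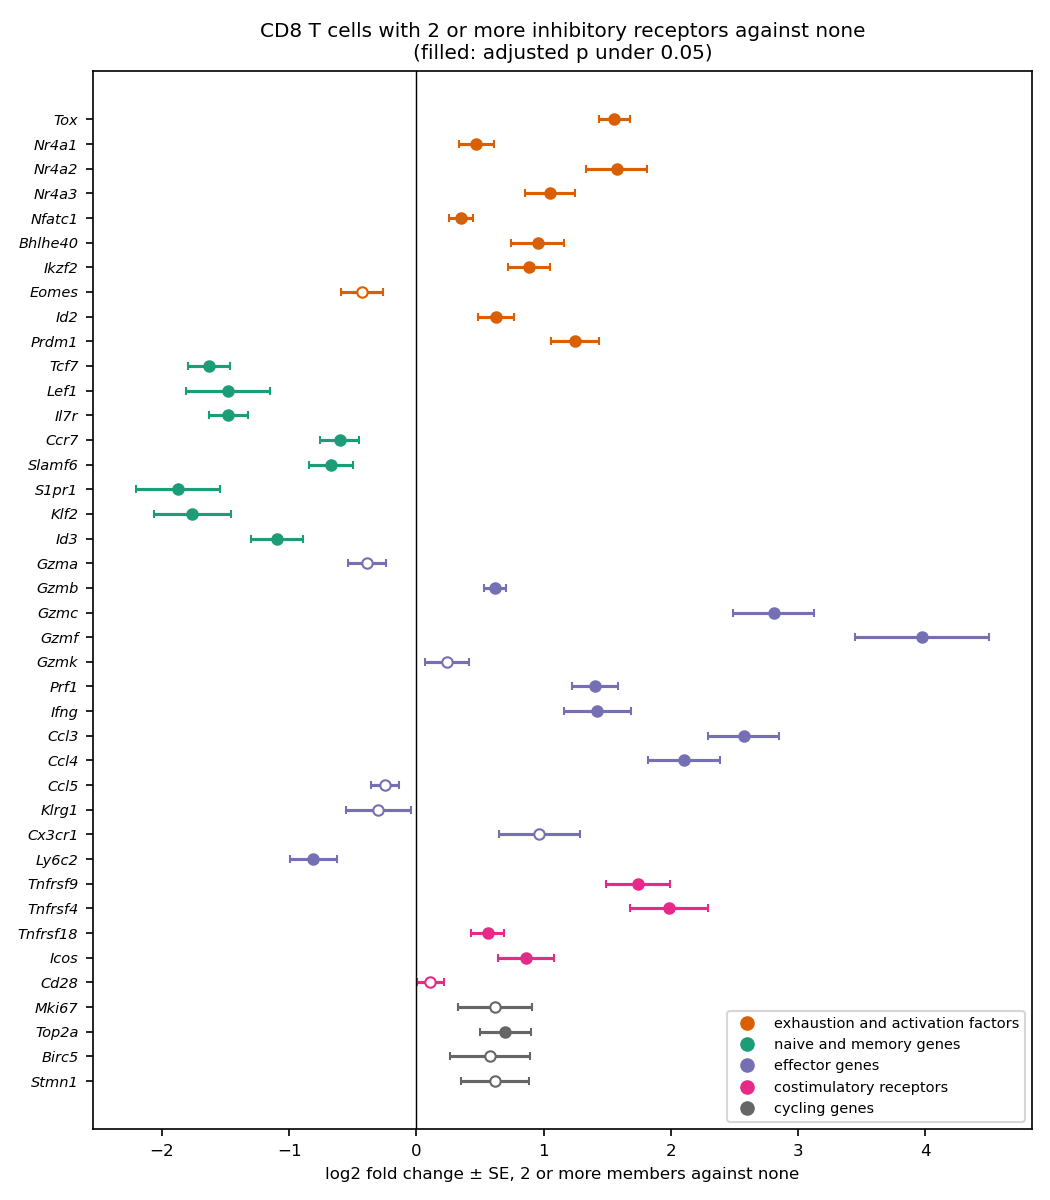
Log2 fold difference with SE of the listed genes between CD8+ T cells with at least 2 members detected and cells with none, grouped by list, over 6 libraries. Exhaustion and activation factors other than Eomes (-0.43) lie to the right, up to 1.57 for Nr4a2. Naive and memory genes lie to the left, down to -1.88 for S1pr1.

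Ligands and signalling partners were counted from lists of 12 each, and not every gene that passed is named. Cd274, which encodes PD-L1, was higher than in CD8+ T cells in NK cells (0.57), Foxp3-negative cells (0.71) and Foxp3-positive cells (1.06), and stood at 383 CPM in macrophages against 31.3 CPM in CD8+ T cells. Of the ligands tested, 3 were higher and 3 lower of 8 in NK against CD8+ T cells (17.2% and 19.6% of all genes). The counts were 1 and 2 of 7 in Foxp3-negative cells (9.16% and 9.07%), and 2 and 2 of 9 in Foxp3-positive cells (13.0% and 12.4%). Cd80, a ligand of CTLA-4, was the other one higher in Foxp3-positive cells (1.45), while Cd86, the related ligand, was lower there (-1.01) and in NK cells (-3.35). Pvr, the ligand of TIGIT and CD96, was lower in NK cells (-1.27) and stood at 47.6 CPM in macrophages. Between Foxp3-positive and Foxp3-negative cells 1 ligand was higher and 1 lower of 5 tested (10.2% of all genes in each direction). Between type 2 and Foxp3-negative cells 0 of 5 passed (7.73% of all genes higher, 5.94% lower).

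Among the partners, Cd226, the activating receptor for CD155, was lower in Foxp3-positive cells than in CD8+ T cells (-2.77) and than in Foxp3-negative cells (-3.10), which is the direction of Cd96 and opposite to that of Tigit. Icos was higher in Foxp3-positive cells (2.54) and Foxp3-negative cells (1.63) than in CD8+ T cells. Nt5e, which acts after CD39, was higher in Foxp3-positive cells than in CD8+ T cells (1.46), as Entpd1 was (1.37). Of the partners tested, 2 were higher and 6 lower of 11 in NK against CD8+ T cells (17.2% and 19.6% of all genes). The counts were 5 and 3 of 12 in Foxp3-negative cells (9.16% and 9.07%) and 4 and 4 of 12 in Foxp3-positive cells (13.0% and 12.4%). They were 2 and 5 of 12 between Foxp3-positive and Foxp3-negative cells (10.2% each), and 0 and 6 of 12 between type 2 and Foxp3-negative cells (7.73% and 5.94%). Ptpn6, which encodes the phosphatase SHP-1, was lower than in CD8+ T cells in NK (-0.47), Foxp3-negative (-0.81) and Foxp3-positive cells (-1.31). The medians of the partners were -0.47, 0.37 and 0.10 in those 3 comparisons.

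Likeness of pattern was measured as Pearson's r of log2(CPM + 10) over 31 sums of a class in a library, which share libraries and depth, among 8812 genes. The genes most like Ctla4 were Ehd1 (r = 0.94) and Tnfrsf4 (0.93), those most like Cd160 were Xcl1 and Crtam (0.91 each), and those most like Pdcd1 were Plcg1 (0.91) and Fam169b (0.89). Lag3 was closest to Il21r (0.90), Tigit to Pglyrp1 (0.88), Entpd1 to Pglyrp1 (0.87), Havcr2 to BC021614 (0.87), Btla to Slfn1 (0.88) and Cd96 to B4galnt1 (0.91). Among the members, Tigit and Entpd1 (0.81) and Lag3 and Havcr2 (0.80) were closest, and Ctla4 and Cd160 were farthest apart (-0.52).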

How the data were processed

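The 8 libraries were single-cell 5′ libraries of CD45+ tumor-infiltrating cells. Per the labels, the authors counted UMIs with Cell Ranger (2.2.0 in the processing notes, genome GRCm38), aggregated the libraries and deposited raw counts per gene and barcode, with no normalization. The study's methods name another Cell Ranger version, and which one made the counts is not settled. The number of columns of other samples left unused was 0.

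Cells were kept with 500 to 6000 genes, 2000 to 40000 UMIs, 5 to 60% ribosomal and under 10% mitochondrial UMIs, which left 12828 of 15700. Gates on raw marker UMIs left out cells with macrophage, B or plasmacytoid markers, and no doublet caller was run. Classes were compared on UMIs summed per library and class (at least 20 cells in both) with edgeR 4.0.16 in R 4.3.3: TMM, filterByExpr, library as a block, quasi-likelihood test, Benjamini-Hochberg over all genes, threshold 0.05. Its p-values measure how steady the difference between classes was within libraries. The libraries were of different conditions and days and not replicates of 1 condition. DESeq2 1.42.0 was an alternative. Conditions had 1 library each and were compared as log2 ratios of CPM + 10, for genes with at least 50 UMIs over both libraries, with 95% intervals for counting error. Thinning drew 2000 UMIs per cell (seed 1). A count of 0 was taken to allow 3 counts. The tighter cell filter kept 400 to 3000 genes, 500 to 12000 UMIs, under 5% mitochondrial and under 50% ribosomal UMIs. Scripts (Python 3.11.15, numpy 2.4.6, pandas 2.3.3, scipy 1.17.1, matplotlib 3.10.9) were tested on simulated data.

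The genes named are the 9 members in every comparison, some of the ligand and partner genes that passed a test, and the CD8+ state lists. Between CD8+ T cells with at least 2 members and none, genes with the largest changes were named from the 10 highest and 10 lowest. The genes most alike each member were named from 2 each. A gene of these lists is not reported here. The members and lists were chosen with earlier results of these data known. Promoter sequences and positions are those of RefSeq on GRCm38.p6. Conditions and days were read from the codes of the labels. NK, CD4+ and type 2 values were set side by side between conditions by the same ratios, and classes under 20 cells in a library gave no value.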

Additional observations from a re-analysis of the deposited data

Results flagged for a closer look

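Ctla4 went in opposite directions between NK cells and Foxp3-negative CD4+ T cells in the day 12 libraries. Between PD1d/IL-2v/IL-33 and PD1d/IL-2v ACT its log2 ratio was 1.41 in NK cells (74.0 against 21.5 CPM) and -3.60 in Foxp3-negative cells (139 against 1793 CPM). Between PD1d/IL-2v/IL-33 and PD1d/IL-33 ACT it was 1.85 in NK cells (74.0 against 13.3 CPM, the latter 5 UMIs) and -1.11 in Foxp3-negative cells (139 against 311 CPM). Both comparisons share the PD1d/IL-2v/IL-33 library. With 1 library per condition the difference between the classes was not tested. In Foxp3-negative cells without a UMI of Il2ra, Ikzf2 or Ikzf4 the first ratio was -1.08.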

How the results depend on the processing

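Counts of members past 2-fold in CD8+ T cells moved with the settings. With a pseudocount of 1 CPM the count was 1 in place of 0 for untransduced ACT against non-treated tumors (5.67% of all genes higher, 1.94% lower). The same change was seen for the mix at day 12 against day 5 (1.59% higher, 1.30% lower). The count was 2 in place of 1 for the mix against PD1d/IL-2v (4.06% higher, 4.25% lower) and for day 26 against day 12 (6.70% higher, 4.85% lower). With equal weight per cell it was 1 in place of 0 for untransduced ACT against non-treated (1.85% of all genes higher, 0.567% lower). Over time after untransduced ACT it was 3 in place of 5 (1.30% higher, 8.30% lower). It was 0 in place of 1 for the mix against PD1d/IL-33 (1.05% higher, 0.381% lower) and for day 26 (1.43% higher, 1.79% lower). TMM scaling gave 3 over time (1.60% of all genes higher, 5.00% lower) and 0 against PD1d/IL-33 (1.61% higher, 0.393% lower). The stricter gate also gave 0 against PD1d/IL-33 (1.33% higher, 0.588% lower). The tighter cell filter gave 1 in place of 0 against untransduced ACT at day 12 (Lag3, higher, with 8.53% of all genes higher and 2.78% lower). It gave 0 against PD1d/IL-33 (1.15% higher, 0.256% lower) and 0 for day 26 (1.36% higher, 2.12% lower). A minimum of 10 UMIs gave 1 at day 12 against untransduced ACT (3.98% higher, 2.47% lower). The causes were not tested.

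The share of CD8+ T cells with at least 2 members depended on depth. Without thinning it was 80.5% (untransduced, day 5), 52.4% (day 12), 68.0% (PD1d/IL-2v), 67.03% (PD1d/IL-33), 78.4, 76.8 and 66.8% (the mix at days 5, 12 and 26) and 77.6% (non-treated). At 1000 UMIs it was 42.6, 14.3, 22.5, 19.3, 20.2, 16.4, 18.2 and 38.2% in that order. Without cells with Mki67 it was 56.1% after untransduced ACT at day 5.

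Between Foxp3-negative and CD8+ T cells the number of members called was 5, 3 with DESeq2 and 3 to 6 with 1 library left out. Over all genes, 1129 to 1457 were called there with 1 library left out, in place of 1533. The count over all genes with DESeq2 is not given, so a loss particular to the members cannot be told from a general one. Pdcd1 there was -0.03, but 0.11 with the stricter gate, 0.12 with the tighter filter, 0.00188 without cells over 20000 UMIs and -0.16 to 0.0805 with 1 library left out, and Tigit ranged from -0.38 to 0.0378. Between NK and CD8+ T cells Tigit ranged from -0.10 to 0.10, and Entpd1 was 0.00538 with the tighter filter. Between Foxp3-positive and CD8+ T cells 1526 genes were called with the stricter gate and 1567 to 2249 with 1 library left out, in place of 2358, and Btla ranged from -0.49 to 0.0261. Between Foxp3-positive and Foxp3-negative cells DESeq2 called 578 genes and the stricter gate 540, in place of 1013, and leaving out 1 library gave 634 to 995. Between type 2 and Foxp3-negative cells DESeq2 called 340 genes, no filter 895 and leaving out 1 library 451 to 588, in place of 594. The members called were 3 with no filter and 1 to 3 with 1 library left out, in place of 1. They were 0 with the stricter gate and 2 with the tighter filter. The counts over all genes under those settings are not given, so a change particular to the members cannot be told from a general one. Ctla4 was at -0.0448 with the stricter gate. Between CD8+ T cells with at least 2 members and none, 1548 genes were called with no filter, 519 with the tighter filter and 368 to 896 with 1 library left out, in place of 877, and with the tighter filter Ccl5 was 0.0304, Klrg1 0.0901, Birc5 -0.24 and Stmn1 -0.0777.

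In Foxp3-negative cells, leaving out cells with regulatory markers was chosen after the data were seen. Members lower were then 2 in place of 4 at day 12 and 1 in place of 5 at day 5. Of the genes with at least 50 UMIs left, Pdcd1 and Ctla4 were lower at day 12. At day 5 Pdcd1 was lower, and Tigit and Ctla4 fell short of 2-fold. The share over all genes was not computed in that setting. At day 12 Lag3 (-1.79) and Tigit (-1.24) and at day 5 Lag3 (-2.38) and Cd96 (-1.07) stayed past 2-fold there with under 50 UMIs. No paired analysis was possible because each condition and day had 1 library, which holds for comparisons between conditions. Classes were paired within libraries, with library as a block. With 42 and 76 CD8+ T cells, the untransduced day 12 and non-treated libraries limit every ratio that uses them, and Btla and Entpd1 rest on few UMIs in most classes.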
